A study of Mus musculus with 77 samples.

Results

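Enhancers of LSK cells with much H3K4me1 and little H3K27ac, called primed here, were set beside those with much of both marks, called active, and both were followed through granulocyte development. A mouse catalogue of 44002 enhancers was ranked once by H3K4me1 and once by H3K27ac in LSK, as percentile ranks within each column. Primed enhancers had an H3K4me1 rank of at least 75 and an H3K27ac rank of at most 25, and active enhancers had ranks of at least 75 for both marks. This gave 772 primed enhancers, 1.75% of the catalogue, and 5014 active enhancers, 11.4%. Of the 11003 enhancers in the top 25% by H3K4me1, 7.02% were primed, 45.6% were active and the other 5217 had an H3K27ac rank between the limits.

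H3K4me1 is a histone methylation found at enhancers whether or not they are in use, and H3K27ac is a histone acetylation found at enhancers in use. Enhancers that carry the methylation without the acetylation are commonly called primed or poised, since some of them acquire the acetylation when cells differentiate or are stimulated. PU.1, a transcription factor of blood progenitors and myeloid cells, and CEBPA, a factor needed for granulocyte-monocyte development, bind many enhancers of this lineage.

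The cells were sorted from mouse bone marrow, and the groups used here are Cebpa knockout (KO) preGM and wild type LSK, preGM, GMP and granulocytes. LSK cells are Lin- Sca-1+ ckit+ stem and multipotent progenitor cells. PreGM cells were sorted as Lin- Sca-1- ckit+ CD150- CD105- cells, GMP as Lin- Sca-1- ckit+ CD150- FcgRII/III+ cells, and granulocytes by Mac1 and Gr-1. The strain, the age of the mice and the way in which Cebpa was deleted are not given in the sources used here. ChIP-seq signal was available for H3K4me1 and H3K27ac in all 5 groups, for PU.1 in all but granulocytes, and for CEBPA in wild type preGM. The labels list 2 libraries for each of the 15 combinations, but the deposited table gives each enhancer a single value per combination. There is therefore no replicate error and no test in what follows. Differences are described by their size, beside the same measure over all enhancers where that was computed. The depth of the libraries is unknown, so the counting precision of the values is unknown too. In populations of cells, fewer cells that carry a mark and less of the mark per cell cannot be told apart.

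The stage names of the expression columns were compared with known stage genes, of which 3 are given as examples. It lists Flt3, a receptor of early progenitors, at an expression of 2970 in LSK, 146 in GMP and 58.8 in granulocytes. The table gives Prtn3, a primary granule protease, at 1445 in LSK, 9962 in GMP and 673 in granulocytes. It gives Mmp9, a protease of mature neutrophils, at 33.8 in LSK, 30.1 in GMP and 6049 in granulocytes. Each of these 3 genes was highest at the stage for which it is known. These values do not check the labels of the ChIP-seq columns, and no expression of preGM was used, wild type or KO. The table has 1 expression value per gene and stage. Its unit and the libraries behind it are not given in the sources used here.

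One run of enhancers stood apart from the rest. On chr8:126061686-126143779, 45 active enhancers assigned to Gas8 and Rhou lay at a median spacing of 1666 bp and had a median width of 44 bp. Their H3K27ac in LSK ranged from 1.60 to 3.11, with a standard deviation of 11.7% of their mean, against 57.7% over all active enhancers. Of these 45, 44 had an H3K4me1 rank of at least 99 in LSK, which 313 active enhancers reached. None of the 45 reached an H3K27ac rank of 75 at a later stage. The main shares are also given without the 58 enhancers of both genes.

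The 2 marks ranked enhancers alike in part. Over the 44002 enhancers their Spearman correlation was 0.51 in LSK, 0.38 in preGM, 0.35 in GMP and 0.66 in granulocytes, a description in which neighbouring enhancers share signal. The H3K4me1 limit lay between a signal of 4.59 just inside and 4.59 just outside, so the nearest enhancers on both sides differed by less than rounding. The upper H3K27ac limit lay at 1.39 and the lower one at 0.66, each with members just as close on both sides. The median H3K4me1 in LSK was 5.52 in primed and 5.95 in active enhancers, and the median H3K27ac was 0.559 in primed and 1.97 in active enhancers. These 2 columns chose the classes, so their difference is not a result.

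**Figure D1:**
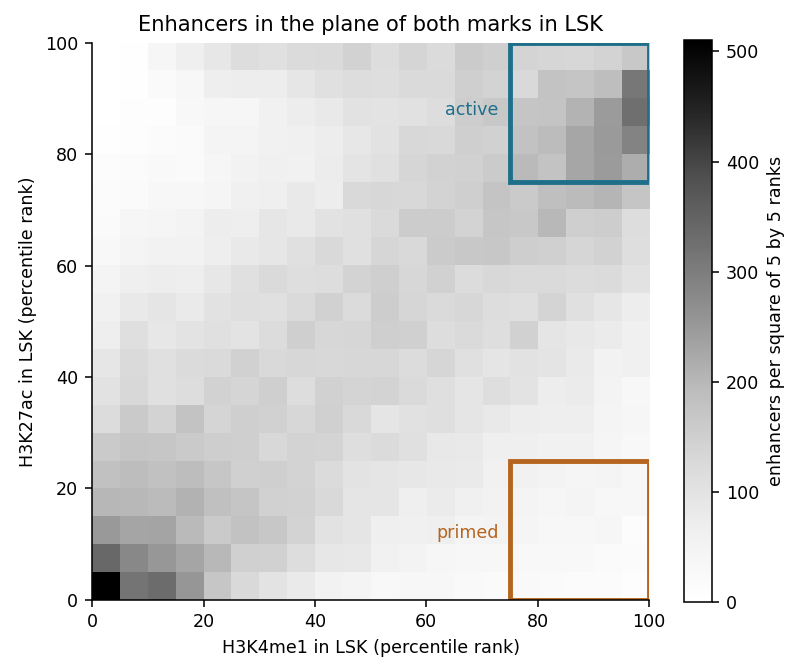
Number of enhancers by percentile rank of H3K4me1 in LSK (horizontal axis) and of H3K27ac in LSK (vertical axis), in squares of 5 by 5 ranks; darker squares hold more enhancers. The lower right box holds the 772 primed enhancers and the upper right box the 5014 active enhancers.

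Of the primed enhancers with the widest gap between the ranks, a selection is described. The widest gap was at an enhancer assigned to Lifr, the receptor of leukaemia inhibitory factor, at chr15:7079463-7079495 (build mm9). Its H3K4me1 was 8.01 in LSK, 7.12 in preGM, 8.25 in GMP and 5.32 in granulocytes, and its H3K27ac was 0.287 in LSK, 0.140 in preGM, 0.711 in GMP and 0.800 in granulocytes. An enhancer of Fabp3, a fatty acid binding protein of muscle, at chr4:129985435-129985632 had an H3K4me1 of 8.03 in LSK, 5.23 in preGM, 6.53 in GMP and 3.36 in granulocytes. Its H3K27ac was 0.379 in LSK, 0.312 in preGM, 0.746 in GMP and 0.888 in granulocytes. Both had high methylation through GMP and were below the median acetylation of all enhancers at each stage. An enhancer of Dlg5, a scaffold protein of cell junctions, at chr14:25064696-25064784 had an H3K4me1 of 7.14 in LSK, 3.93 in preGM, 2.89 in GMP and 0.672 in granulocytes, and one of Enah, a regulator of actin, at chr1:183950137-183950192 had 6.65 in LSK, 4.96 in preGM, 5.07 in GMP and 4.49 in granulocytes. The methylation at Dlg5 was thus low in granulocytes, while that at Enah was not far below the median of all enhancers. Lifr was listed at a low expression of 23.9 in LSK, 24.7 in GMP and 19.5 in granulocytes, against medians of 110 in LSK, 113 in GMP and 90.6 in granulocytes over the 10096 genes of the table. The expression of the other genes named here is not given.

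Among the active enhancers, those highest in both marks included one at Nfkb2, a subunit of NF-kappaB, at chr19:46379033-46379195. Its H3K27ac was 9.0 in LSK, 12 in preGM, 21.5 in GMP and 16.5 in granulocytes. An enhancer of Map2k3, a kinase of the p38 pathway, at chr11:60748906-60749020 had an H3K27ac of 7.54 in LSK, 6.93 in preGM, 10.4 in GMP and 14.3 in granulocytes. Both were far above the median of all enhancers at every stage. An enhancer of Klhl35 at chr7:106617084-106617169 had 9.21 in LSK, 14.5 in preGM, 18.3 in GMP and 3.30 in granulocytes, with its lowest acetylation in granulocytes.

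Most primed enhancers had little acetylation at every later stage. An H3K27ac rank of at least 75, which 25% of all enhancers have at each stage, was reached by 21 primed enhancers in preGM (2.72%), 16 in GMP (2.07%) and 50 in granulocytes (6.48%). Active enhancers reached it in 68.7%, 63.7% and 51.0% at the same 3 stages. The median H3K27ac of primed enhancers was 0.606 in preGM, 0.592 in GMP and 0.641 in granulocytes. That of active enhancers was 2.10, 3.11 and 3.12, and that of all enhancers 0.908, 1.20 and 1.48. Primed enhancers were therefore below the catalogue median throughout, and active enhancers above it.

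At rank 75, primed enhancers were acetylated most often in granulocytes, but less often than enhancers that had neither mark in LSK. Of the 5854 enhancers with both LSK ranks at most 25, 10.5% had an H3K27ac rank of at least 75 in granulocytes, against 6.48% of the primed. Enhancers with an H3K27ac rank of at most 25 and an LSK H3K4me1 rank of 25 to 50 reached it in 6.08%, and those with an H3K4me1 rank of 50 to 75 in 7.31%. By a rank above 50, primed enhancers passed most often in preGM (23.1%), against 15% in GMP and 14.4% in granulocytes. In granulocytes the shares at this rank were 14.4% of primed enhancers, against 25.1% for H3K4me1 ranks of 50 to 75, 27.9% for 25 to 50 and 42.4% for at most 25. In preGM they were 23.1% of primed enhancers, 26.2% for H3K4me1 ranks of 50 to 75, 22.4% for 25 to 50 and 12% for at most 25. The median width was 119 bp for primed enhancers and 306 bp for those with neither mark. The authors' LSK flag was set for 0.12% of those with neither mark and 50.3% of primed enhancers, and the granulocyte flag for 63.7% and 14.5%. Enhancers with neither mark in LSK are thus in the catalogue through later stages, and their shares there are a description only. The part of the width and of this choice of members in the shares was not tested.

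Primed enhancers that stood alone were acetylated less often still. Of the 285 primed enhancers with no other listed enhancer within 2 kb, 8 reached rank 75 in granulocytes (2.81%). Among the 1126 active enhancers of that kind, 43.8% did, also a smaller share than the 51.0% of all active enhancers. The share over all enhancers that stood alone is not given here. Without the run on chromosome 8, active enhancers reached rank 75 in 69.3% in preGM, 64.3% in GMP and 51.5% in granulocytes, and the primed shares were the same, since the run holds no primed enhancer.

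**Figure D2:**
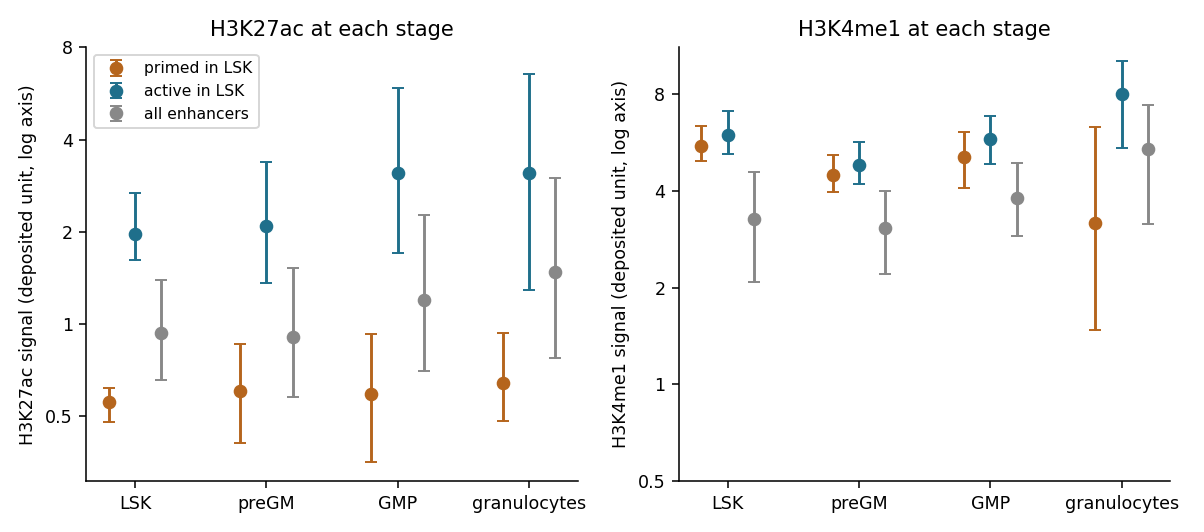
H3K27ac signal (left) and H3K4me1 signal (right) at each stage, on log axes in the deposited unit; points are medians and bars run from the first to the third quartile over 772 primed, 5014 active and 44002 enhancers in all. Primed enhancers stay near an H3K27ac of 0.6 at every stage, and the median of their H3K4me1 is below that of all enhancers in granulocytes only.

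Of the 772 primed enhancers, 696 (90.2%) reached rank 75 at none of the 3 later stages. The other 76 first reached it in preGM (21), GMP (13) or granulocytes (42). The acetylation seen in preGM mostly did not last: of those 21, 3 were at rank 75 in GMP and 2 in granulocytes. Of the 16 that were high in GMP, 7 were also high in granulocytes. The authors' annotation gave a PU.1 or CEBPA site to 21 of the 42 that were first high in granulocytes (50%), to 9 of the 21 first high in preGM (42.9%), to 2 of the 13 first high in GMP (15.4%) and to 125 of the 696 that were never high (18.0%), against 40.5% of all enhancers.

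The enhancers first high in preGM were led by one at Tgfbi, an extracellular matrix protein made by monocytes, at chr13:56717733-56717968. Its H3K27ac was 0.613 in LSK, 3.25 in preGM, 1.24 in GMP and 1.46 in granulocytes, so that preGM stood out. One at Tbxa2r, the thromboxane receptor, at chr10:80784851-80784955 had 0.653 in LSK, 1.97 in preGM, 1.37 in GMP and 1.40 in granulocytes. One at Gmpr, an enzyme of purine metabolism, at chr13:45603272-45603387 had 0.615 in LSK, 1.92 in preGM, 3.24 in GMP and 1.03 in granulocytes, with its highest value in GMP. One at H2afy2, a variant histone, at chr10:61245854-61245879 had 0.649 in LSK, 1.88 in preGM, 0.800 in GMP and 0.661 in granulocytes. One at 6430531B16Rik at chr7:147159531-147159812 differed from these, with 0.617 in LSK, 2.29 in preGM, 2.47 in GMP and 13.8 in granulocytes. At Tgfbi, Tbxa2r and H2afy2 the acetylation was below rank 75 again in GMP.

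Of the 13 enhancers first high in GMP, 6 were at rank 75 in granulocytes. Those with the highest later ranks are described. One at Papss1, which makes the sulfate donor of cells, at chr3:131153202-131153299 had an H3K27ac of 0.606 in LSK, 1.36 in preGM, 4.36 in GMP and 26.4 in granulocytes, the highest value of any primed enhancer in granulocytes. One at Gpc1, a cell surface proteoglycan, at chr1:94728114-94728320 had 0.466 in LSK, 0.608 in preGM, 3.20 in GMP and 10.2 in granulocytes. Gpc1 was listed at an expression of 25.9 in LSK, 317 in GMP and 95.2 in granulocytes. One at Asap1, a regulator of membrane traffic, at chr15:64214024-64214409 had 0.462 in LSK, 0.937 in preGM, 2.86 in GMP and 4.07 in granulocytes, and Asap1 was listed at 128 in LSK, 449 in GMP and 628 in granulocytes. One at Zfp703 at chr8:28088553-28088699 was highest in GMP, with 0.469 in LSK, 1.40 in preGM, 4.06 in GMP and 2.82 in granulocytes. In the first 3 of these the granulocyte value was the highest of the 4 stages.

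Those first high in granulocytes included one at F3, tissue factor, the starter of blood coagulation, at chr3:121426362-121426620, with an H3K27ac of 0.656 in LSK, 0.333 in preGM, 0.980 in GMP and 6.70 in granulocytes. F3 itself was listed at a low expression of 8.55 in LSK, 10.4 in GMP and 12.6 in granulocytes. One at Emilin2, an extracellular matrix protein, at chr17:71660859-71660988 had 0.507 in LSK, 0.501 in preGM, 1.10 in GMP and 5.77 in granulocytes. Emilin2 was listed at an expression of 22.5 in LSK, 159 in GMP and 1044 in granulocytes. One at Sema4d, a semaphorin of lymphocytes and other blood cells, at chr13:51830107-51830396 had 0.649 in LSK, 1.08 in preGM, 1.08 in GMP and 6.34 in granulocytes, and Sema4d was listed at 423 in LSK, 342 in GMP and 605 in granulocytes. One at Rcbtb2 at chr14:73519030-73519290, annotated with CEBPA, had 0.613 in LSK, 0.750 in preGM, 1.54 in GMP and 6.88 in granulocytes. Olfml2b, a secreted matrix protein, had one at chr1:172574092-172574573 with 0.603 in LSK, 1.28 in preGM, 0.468 in GMP and 6.61 in granulocytes.

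Among the primed enhancers that stayed lowest, one at Bai2, a receptor of brain cells, at chr4:129662326-129662353 had an H3K27ac of 0.645 in LSK, 0.173 in preGM, 0.116 in GMP and 0.206 in granulocytes. One at Adamts9, a protease of the extracellular matrix, at chr6:92890695-92890791 had an H3K4me1 of 6.03 in LSK, 4.91 in preGM, 5.37 in GMP and 0.408 in granulocytes, while its H3K27ac was 0.617 in LSK, 0.205 in preGM, 0.160 in GMP and 0.373 in granulocytes. Enhancers of Zfp423, a factor of fat cell development, Nptx1, a protein of synapses, and Kcnma1, a potassium channel, behaved like these, with granulocyte H3K27ac of 0.291, 0.367 and 0.397.

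**Figure D3:**
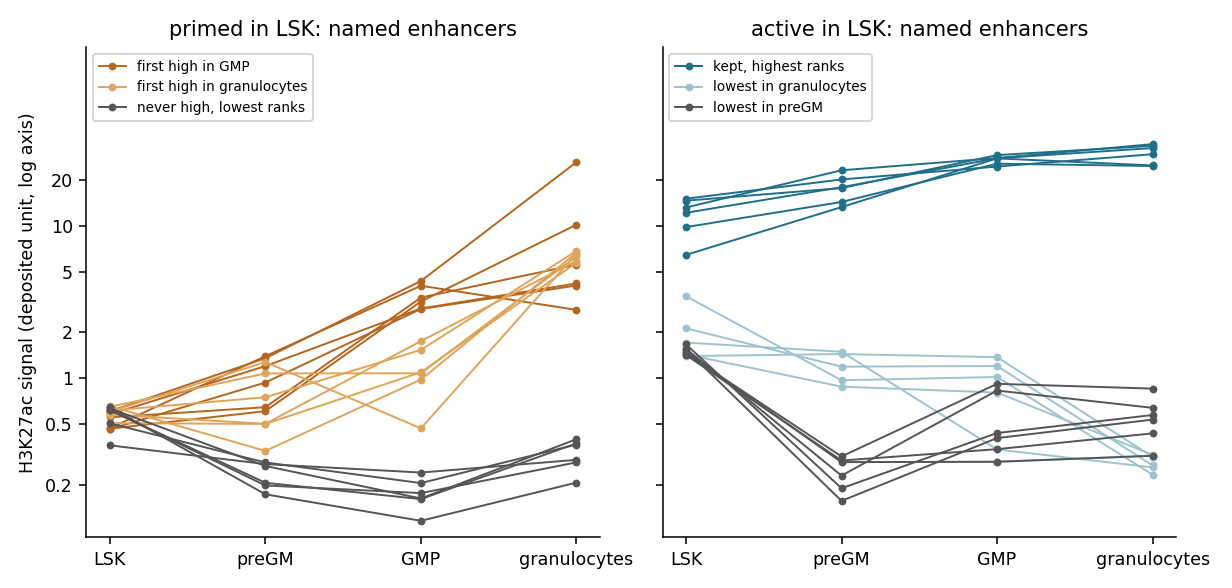
H3K27ac signal (log axis, deposited unit) at each stage for single enhancers, 1 line each, that were primed (left) or active (right) in LSK and were named for their later ranks. Primed enhancers first high in GMP or granulocytes end at 2.82 to 26.4, the lowest primed ones stay below 0.7, and the active lines either stay above 6 or end below 1.

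Active enhancers were acetylated more often and for longer. An H3K27ac rank of at least 75 was held at all 3 stages by 1986 active enhancers (39.6%) and at none by 994 (19.8%). Another 867 held it in preGM and GMP but not in granulocytes, 433 in preGM only, 161 in GMP only, and 573 in granulocytes but not at all 3 stages. In granulocytes 539 active enhancers (10.7%) were at or below rank 25. A PU.1 or CEBPA site was annotated at 68.5% of those that kept their rank, at 30.3% of those that held it at no later stage, and at 40.5% of all enhancers.

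The highest of the kept enhancers lay at Pcid2, Klf13, Dusp1 and Ndor1. The one at Klf13, a transcription factor of blood and heart, at chr7:71083788-71084143 had an H3K27ac of 13.3 in LSK, 23.3 in preGM, 28.1 in GMP and 34.6 in granulocytes. The one at Dusp1, a phosphatase of MAP kinases, at chr17:26645442-26645576 had 12.3 in LSK, 18 in preGM, 28 in GMP and 32.7 in granulocytes. The one at Pcid2, part of the RNA export machinery, at chr8:13104812-13104894 had 14.7 in LSK, 17.8 in preGM, 29.3 in GMP and 33.8 in granulocytes. These 3 enhancers had their highest value in granulocytes.

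Active enhancers that were lowest in preGM included ones at Dmbx1 and Isl2, homeobox genes of neural development. The one at Dmbx1 at chr4:115609096-115609253 had an H3K27ac of 1.55 in LSK, 0.156 in preGM, 0.404 in GMP and 0.535 in granulocytes. The one at Isl2 at chr9:55392479-55392657 had 1.56 in LSK, 0.229 in preGM, 0.830 in GMP and 0.639 in granulocytes. The one at Sdc1, a cell surface proteoglycan, at chr12:8851027-8851221 had 1.45 in LSK, 0.306 in preGM, 0.919 in GMP and 0.855 in granulocytes. The LSK values of these 3 lay not far above the upper limit of 1.39.

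In GMP the lowest included an enhancer of Nkx2-3, a homeobox gene, at chr19:43685942-43686049, with 1.41 in LSK, 0.745 in preGM, 0.205 in GMP and 0.376 in granulocytes. One at Cygb, cytoglobin, at chr11:116515430-116515511 had 1.76 in LSK, 0.831 in preGM, 0.244 in GMP and 0.727 in granulocytes and an LSK H3K4me1 of 11.2. In granulocytes the lowest included one at Smo, a receptor component of the Hedgehog pathway, at chr6:29686771-29686890, with 1.40 in LSK, 1.44 in preGM, 1.38 in GMP and 0.304 in granulocytes. Another lay at Casc4 at chr2:121692685-121692854, with 2.13 in LSK, 1.19 in preGM, 1.20 in GMP and 0.267 in granulocytes.

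When both marks were read together, primed enhancers were often still primed in both later progenitors and rarely in granulocytes. In preGM 260 primed enhancers (33.7%) were in the primed state, against 2.85% of all enhancers, and 18 (2.33%) were in the active state, against 9.62% of all. In GMP 228 (29.5%) were primed, against 2.75% of all, and 15 (1.94%) were active, against 9.52% of all. In granulocytes 22 (2.85%) were primed, against 0.743% of all, and 26 (3.37%) were active, against 11.8% of all. By then 341 primed enhancers (44.2%) had ranks of at most 25 for both marks, which held for 18.0% of all enhancers. The state of an enhancer at a later stage uses ranks in that stage alone.

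Active enhancers kept the active state in 56.4% in preGM, 48.8% in GMP and 36.3% in granulocytes. They rarely passed into the primed state, with 76 (1.52%) in preGM, 80 (1.60%) in GMP and 63 (1.26%) in granulocytes. In granulocytes 6.32% of active enhancers had both marks at rank 25 or below.

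**Figure D4:**
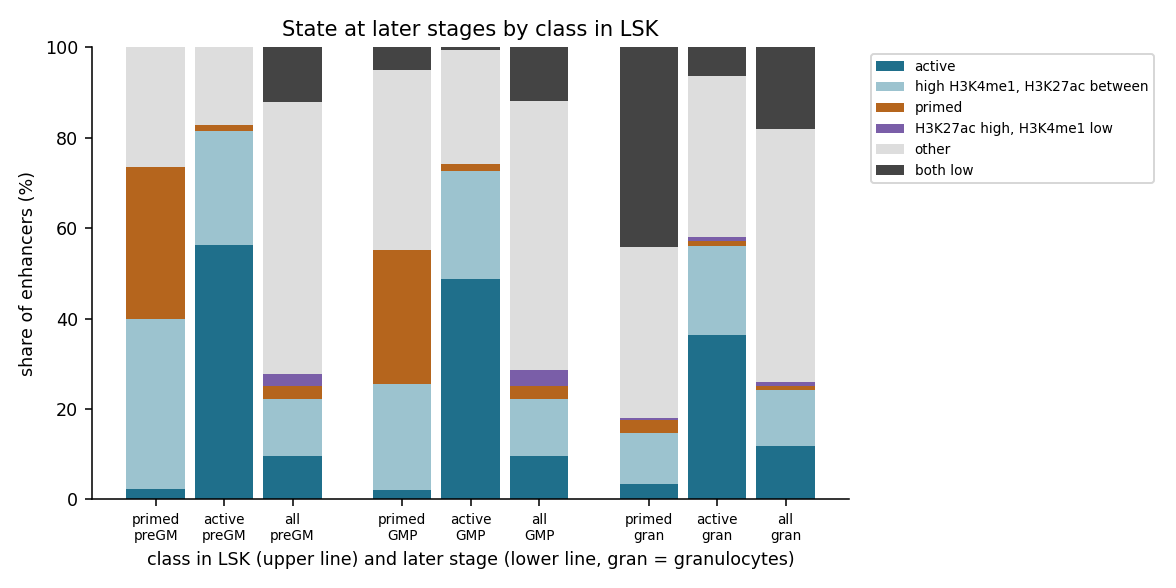
Share of enhancers (%) in each state at each later stage, for enhancers primed in LSK, active in LSK and all 44002 (left to right within each stage). At granulocytes 44.2% of the primed enhancers have both marks low, against 6.32% of the active ones and 18.0% of all.

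The methylation of the classes was furthest apart in granulocytes. An H3K4me1 rank of at least 75, held by 25% of all enhancers at each stage, was kept by 73.6% of primed enhancers in preGM, 55.1% in GMP and 17.6% in granulocytes. Active enhancers kept it in 82.9%, 74.2% and 57.3%. The median H3K4me1 in granulocytes was 3.18 in primed enhancers, 7.99 in active enhancers and 5.41 in all. Between granulocytes and GMP it was at least 2-fold lower at 109 primed enhancers (14.1%), 199 active enhancers (3.97%) and 2.81% of all. It was at least 2-fold higher at 7 primed enhancers (0.907%), 188 active enhancers (3.75%) and 9.69% of all. The median log2 ratio of granulocytes to GMP was -0.49 in primed, 0.35 in active and 0.32 in all enhancers. With the median of all subtracted, H3K4me1 was at least 2-fold lower at 36.0% of primed and 9.27% of active enhancers and at least 2-fold higher at 0% of primed and 0.459% of active ones. The shares of lower values were 36.1% of primed and 8.54% of active enhancers with a pseudocount 4 times smaller than the 2 used, and 0% of both with one 4 times larger. With the median subtracted or another pseudocount, the share of all enhancers was not computed.

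The later marks differed by degrees across the top 25% of LSK H3K4me1. These enhancers were put in 10 bins, each spanning 10 ranks of LSK H3K27ac. The median H3K4me1 rank in granulocytes was 18.3 in the lowest bin, 51.7 in the fifth and 84.2 in the highest. The median H3K4me1 rank in preGM was 83.3, 84.1 and 86.8 in the same bins. The median H3K27ac rank in granulocytes was 15.3, 31.0 and 90.1. The bins held 195 to 2264 enhancers.

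**Figure D5:**
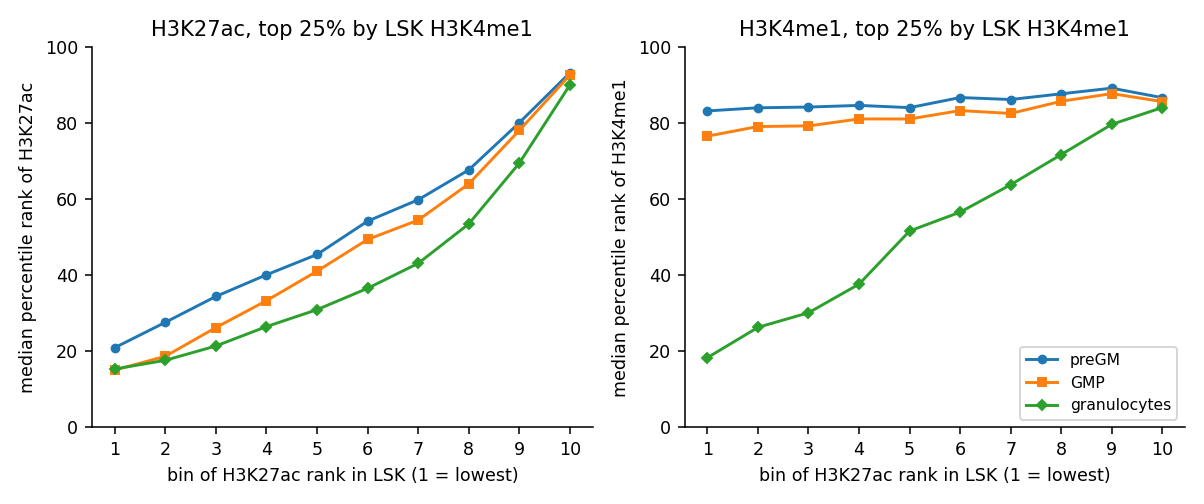
Median percentile rank of H3K27ac (left) and H3K4me1 (right) in preGM, GMP and granulocytes, over 10 bins of LSK H3K27ac rank, for the 11003 enhancers in the top 25% by LSK H3K4me1. The H3K4me1 lines of preGM and GMP stay above rank 75, while that of granulocytes lies at 18.3 in the lowest bin and 84.2 in the highest.

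Between GMP and preGM, a higher H3K27ac in GMP was found at a larger share of active than of primed enhancers. With 0.7 added to each signal, 23 primed enhancers (2.98%) and 687 active enhancers (13.7%) had at least 2-fold more H3K27ac in GMP than in preGM, against 9.21% of all. At least 2-fold less was found at 10 primed (1.30%) and 26 active enhancers (0.519%), against 0.411% of all. Enhancers with a signal below 0.7 in preGM cannot enter this count. The median there was 0.606 in primed and 2.10 in active enhancers. The median log2 ratio of all enhancers was 0.29, and with it subtracted 0.777% of primed and 4.29% of active enhancers had at least 2-fold more in GMP, and 6.35% of primed and 1.56% of active ones at least 2-fold less. The shares of all enhancers with it subtracted were not computed. The highest ratio of an active enhancer was at Celsr3, a cadherin of planar polarity, with 7.61 in GMP and 0.408 in preGM. Cebpd, a C/EBP factor of granulocytes, had an enhancer with 11.1 in GMP and 1.78 in preGM. The lowest ratio was at Flt3, with 2.46 in GMP and 10.8 in preGM.

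Between granulocytes and GMP, at least 2-fold less H3K27ac was found at 9 primed (1.17%) and 709 active enhancers (14.1%), against 6.05% of all. With 0.7 added, an enhancer with a signal below 0.7 in GMP cannot be counted as 2-fold less. The median H3K27ac in GMP was 0.592 in primed and 3.11 in active enhancers, so most primed enhancers could not enter this count. With a pseudocount 4 times smaller, 5.18% of primed and 19.2% of active enhancers had at least 2-fold less. At least 2-fold more was found at 56 primed (7.25%) and 626 active enhancers (12.5%), against 14.1% of all. The order of the classes in this last count turned round with a pseudocount 4 times smaller (18.5% of primed and 15.6% of active enhancers). Among enhancers at or above the median signal in granulocytes or GMP, 30.1% of primed and 13.9% of active ones passed. This filter keeps enhancers that are high in granulocytes alone, and most primed enhancers were below the median of all in GMP. It thus partly selects primed enhancers by the granulocyte value being counted, so the order under the filter is not a result. The shares of all enhancers were not computed under these settings. Among the active, Coro1c, a coronin of the actin cytoskeleton, had an enhancer with 17.5 in granulocytes and 1.29 in GMP. Slc16a1, a lactate transporter, had one with 1.66 in granulocytes and 22.0 in GMP. Fasn, fatty acid synthase, had one with 1.30 in granulocytes and 17.0 in GMP. Among the primed, an enhancer of Bmpr1a, a receptor of bone morphogenetic proteins, had 4.01 in granulocytes and 0.154 in GMP.

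PU.1 and CEBPA signal was not used to choose the classes. The median PU.1 signal in LSK was 0.955 in primed, 1.91 in active and 0.994 in all enhancers, and 47.5% of primed and 81.7% of active enhancers were above the median rank. In GMP the medians were 1.01 in primed, 2.41 in active and 1.25 in all enhancers. The median CEBPA signal in preGM was 0.527 in primed, 0.638 in active and 0.534 in all enhancers. The authors' table lists no PU.1 or CEBPA site at 79.7% of primed, 45.3% of active and 59.5% of all enhancers. It lists both factors at 2.20% of primed, 15.3% of active and 9.21% of all enhancers. Between preGM and LSK, PU.1 signal was at least 2-fold higher at 28 primed (3.63%) and 286 active enhancers (5.70%), against 6.56% of all.

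In KO preGM the targeted gene was looked at first. Of the 16 enhancers assigned to Cebpa, 3 were active in LSK. At chr7:35905728-35905889 their H3K4me1 was lowest, 0.300 in KO preGM against 4.41 in wild type preGM. The other active ones had 1.65 in KO against 3.09 in wild type at chr7:35904309-35904348, and 0.857 against 3.99 at chr7:35904704-35904792. Next to them another Cebpa enhancer, with both marks low in LSK, had 0.00686 in KO and 3.14 in wild type preGM. Over the whole catalogue 4 enhancers, 0.00909%, had at least 2-fold less H3K4me1 in KO, and 3 of them lay at Cebpa. H3K27ac at the 3 active Cebpa enhancers was 10.1, 14.9 and 8.0 in KO, against 5.07, 7.48 and 4.09 in wild type preGM. At the other Cebpa enhancers, in neither class, H3K27ac was higher in KO at some and lower at others. Among the lower, the one with both marks low in LSK had 0.0320 in KO and 0.812 in wild type, and those at chr7:35908033-35908343, chr7:35908358-35908519 and chr7:35909054-35909130 had 1.17, 1.40 and 1.43 in KO, against 2.94, 3.85 and 3.98 in wild type preGM.

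In the main count, few enhancers of either class differed at least 2-fold in H3K27ac between KO and wild type preGM. The median log2 ratio of H3K4me1 in KO over wild type preGM was 0.095 in primed, 0.212 in active and 0.104 in all enhancers. H3K27ac was at least 2-fold lower in KO at 2 primed (0.259%) and 17 active enhancers (0.339%), against 0.47% of all. It was at least 2-fold higher at 4 primed (0.518%) and 32 active enhancers (0.638%), against 0.441% of all. With 0.7 added, enhancers with a signal below 0.7 in wild type preGM cannot be counted as lower in KO. The median there was 0.606 in primed and 2.10 in active enhancers. With a pseudocount 4 times smaller, 4.02% of primed and 1.52% of active enhancers were at least 2-fold lower. The 2 primed enhancers that were lower in the main count lay at Tgfbi, with 0.809 in KO and 3.25 in wild type, and at Zbtb10, with 0.313 in KO and 1.34 in wild type. The first is the enhancer that was primed in LSK and led those first acetylated in preGM. Both facts rest on its wild type preGM value, the highest of the primed enhancers, so they are not separate findings. Among the active, an enhancer of Il6ra, the interleukin 6 receptor, had 1.0 in KO and 4.87 in wild type, and one of Prkcd, a protein kinase C, had 0.751 in KO and 2.79 in wild type. One of Junb, an AP-1 factor, had 3.05 in KO and 0.792 in wild type. PU.1 signal was at least 2-fold lower in KO at 28 primed (3.63%) and 381 active enhancers (7.60%), against 6.15% of all. The median log2 ratio of PU.1 over all enhancers was -0.27, and with it subtracted the shares were 1.04% of primed and 1.99% of active enhancers. The share of all enhancers was not computed under this setting or with the smaller H3K27ac pseudocount.

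Genes with a primed enhancer were expressed less than genes with an active one. The 668 genes with a primed enhancer had a median expression in LSK of 42.7, the 2963 genes with an active one 143, and all genes 110. The lowest 25% of genes by expression in LSK held 45.1% of the primed genes and 15.6% of the active genes. For the 477 primed genes without an active enhancer the share was 55.6%. The 71 genes with a primed enhancer that reached rank 75 later had a median expression of 72.6 in LSK, 74.5 in GMP and 168 in granulocytes. The 605 genes with a primed enhancer that did not had 40.2, 32.7 and 31.7.

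In 191 genes that had both kinds of enhancer, the kinds differed in the same way. In granulocytes the 216 primed enhancers of these genes had a median H3K27ac rank of 26.9 and the 426 active ones 66.3. The primed were below the active, by the medians of the gene's own ranks, in 157 of 191 genes for H3K27ac and in 127 for H3K4me1. The active enhancers of these genes reached rank 75 in 42.0%, and the primed in 9.26%.

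Gene lists of the blood lineages are read beside the whole catalogue, of which 1.75% was primed and 11.4% active. Of 387 enhancers at 24 measured stem and multipotent progenitor genes, 2 were primed (0.517%) and 51, in 16 genes, were active (13.2%). Of the 51, 31 were at H3K27ac rank 75 in preGM, 25 in GMP and 8 in granulocytes, where all active enhancers had shares of 68.7%, 63.7% and 51.0%. The primed ones lay at Lyl1, a bHLH factor of stem cells, and Gfi1b, a repressor of erythroid cells. An active Lyl1 enhancer at chr8:87254780-87254820 had 1.82 in LSK, 2.19 in preGM, 2.17 in GMP and 0.609 in granulocytes, while the primed one at chr8:87260853-87261109 had 0.434 in LSK, 0.290 in preGM, 0.648 in GMP and 0.533 in granulocytes. Active enhancers of Hoxa9, a homeobox factor of stem cells, and Gata2, a factor of stem cells and mast cells, had 0.399 and 0.553 in granulocytes. Their LSK values were 3.67 and 2.05.

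Of 267 enhancers at 14 myeloid transcription factor genes, 2 were primed (0.749%), both at Id2, and 26, in 10 genes, were active (9.74%). Of the 26, 17 were at rank 75 in preGM, 19 in GMP and 14 in granulocytes. The Id2 enhancer at chr12:25780992-25781138, annotated with PU.1, had 0.587 in LSK, 1.20 in preGM, 1.49 in GMP and 3.51 in granulocytes, and Id2, an inhibitor of bHLH factors, was listed at an expression of 50.9 in LSK, 130 in GMP and 709 in granulocytes. An active enhancer of Irf8, a monocyte factor, had 1.65 in LSK, 2.97 in preGM, 2.91 in GMP and 0.676 in granulocytes. One of Sox4, a factor of progenitors, had 1.81 in LSK, 0.706 in preGM, 1.19 in GMP and 0.337 in granulocytes. Both had low H3K27ac in granulocytes.

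Among 177 enhancers of 17 genes of secondary granules and mature neutrophils, 2 were primed (1.13%), both at Mmp9, and 2 were active (1.13%), both at Padi4, the enzyme that citrullinates histones in neutrophils. The Mmp9 enhancer at chr2:164775294-164775789 had 0.504 in LSK, 0.214 in preGM, 1.27 in GMP and 4.51 in granulocytes. The other Mmp9 enhancer, at chr2:164768579-164768639 and annotated with both factors, had 0.460 in LSK, 0.483 in preGM, 0.776 in GMP and 4.34 in granulocytes. Both Mmp9 enhancers had their highest value in granulocytes, and the first was above the median of all enhancers in GMP too. The Padi4 enhancer at chr4:140344281-140344364 had 1.51 in LSK, 1.19 in preGM, 1.75 in GMP and 11.9 in granulocytes. At 5 primary granule genes, none of 29 enhancers was primed and 3 were active, at Prtn3 and Elane. The one at Elane, neutrophil elastase, had 1.98 in LSK, 1.49 in preGM, 5.93 in GMP and 1.69 in granulocytes.

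Of the other lists, monocyte and macrophage genes had 2 primed (1.45%) and 11 active enhancers (7.97%) among 138. Cytokine receptor genes had no primed and 10 active enhancers (7.87%) of 127, and cell cycle genes none and 11 (8.03%) of 137. Markers of B cells had 1 primed (9.09%), at Pax5, and no active enhancer of 11, and those of T and NK cells 1 primed (4.35%), at Tcf7, and 5 active (21.7%) of 23. Both of these primed shares rest on 1 enhancer. Erythroid, megakaryocyte, dendritic cell, and mast cell, basophil and eosinophil markers had no primed enhancer, and 1, 8, 3 and 0 active ones.

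Genes with 3 or more primed enhancers numbered 10. All 4 enhancers of Gsx1, a homeobox gene of the brain, and all 3 of C1ql3, a secreted protein of neurons, were primed. None of the primed enhancers of Gsx1, C1ql3, Hhipl1, Pdgfb, Ptprs, Sema6a, Tbx1, Bahcc1 or Egr3 reached rank 75 later, and 1 of 3 at Tns1 did. Ptprs, a receptor phosphatase, was listed at an expression of 532 in LSK, 411 in GMP and 80.6 in granulocytes, with 3 primed enhancers of 17. The most active enhancers per gene, apart from Gas8 and Rhou, were 17 of 70 at Zfp36l2, an RNA-binding protein of blood stem cells, of which 10 were at rank 75 in granulocytes. At Gpr56, an adhesion receptor of stem cells, 8 of 10 active enhancers were at rank 75 in preGM and none in granulocytes, and Gpr56 was listed at an expression of 1219 in LSK and 68.3 in granulocytes.

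Among the enhancers were some at miRNA genes, which were chosen for a closer view after their values were seen. The mature miRNAs of these genes are shown to identify the products, with the seed (bases 2 to 8, the part that pairs with targets) in capitals, 5′ to 3′, from RefSeq (GRCm38.p6). Mirlet7b makes let-7b, and Mir17hg is the host gene of a cluster of 6 miRNAs, of which miR-17 and miR-20a share a seed, as do miR-19a and miR-19b.
mmu-let-7b-5p: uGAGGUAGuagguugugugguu
mmu-miR-17-5p: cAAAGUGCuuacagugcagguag
mmu-miR-20a-5p: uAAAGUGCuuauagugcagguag
mmu-miR-18a-5p: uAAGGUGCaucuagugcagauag
mmu-miR-19a-3p: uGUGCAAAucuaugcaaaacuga
mmu-miR-19b-3p: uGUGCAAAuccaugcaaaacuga
mmu-miR-92a-3p: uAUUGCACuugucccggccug

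Of 13 enhancers assigned to Mirlet7b, 4 were active and none was primed. The strongest, at chr15:85484457-85484501 (mm9), had an H3K27ac of 3.87 in LSK, 8.12 in preGM, 13 in GMP and 4.60 in granulocytes, and an H3K4me1 of 8.64 in LSK, 6.21 in preGM, 7.47 in GMP and 14.8 in granulocytes. Another, at chr15:85477128-85477160, had an H3K27ac of 1.66 in LSK, 2.33 in preGM, 2.13 in GMP and 0.843 in granulocytes. At both enhancers H3K27ac was higher in preGM and GMP than in granulocytes, while H3K4me1 was highest in granulocytes. Of 6 enhancers assigned to Mir17hg, the 1 primed enhancer at chr14:115442671-115442880 had an H3K27ac of 0.619 in LSK, 0.687 in preGM, 0.606 in GMP and 0.775 in granulocytes. Its H3K4me1 was 4.70 in LSK, 4.48 in preGM, 3.75 in GMP and 0.760 in granulocytes, lowest in granulocytes.

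The authors' stage annotation and the widths set the classes beside the catalogue. The LSK flag was set for 50.3% of primed, 43.9% of active and 15.3% of all enhancers, and the granulocyte flag for 14.5%, 39.6% and 42.5%. No enhancer of the table is annotated to LSK without a later stage, so enhancers that leave the catalogue after LSK are not in these shares. Another listed enhancer lay within 2 kb of 63.1% of primed, 77.5% of active and 75.0% of all enhancers. Among those with such a neighbour, the nearest enhancer was itself primed for 21.8% of primed and 0.592% of active enhancers, and active for 5.54% of primed and 38.4% of active enhancers.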

How the data were processed

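The values come from a table of 44002 enhancers in build mm9 that the authors deposited, with 32 columns of values, of which 14 were not used (6 whose content no label explains, 5 with no listed sample and 3 expression columns that could not be tied to 1 group). Its 15 signal columns each give an enhancer 1 deposited signal for a combination of assay, cell type and genotype. Each column matches 2 of the 77 listed libraries, 30 in all. No source used here says how the authors pooled and scaled them. The values are never negative and were read as linear signal. The 3 expression columns hold 1 deposited value per gene, read as a linear signal and used for ranks and medians only. Per the submitters' processing notes, ChIP-seq tools were MACS2, Bowtie2 and bedtools, and RNA-seq tools were DESeq2, STAR and featureCounts. The depth of each library is unknown.

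Percentile ranks were taken within each column over all enhancers, or over the 10096 genes for expression, with Python 3.11.15, NumPy 2.4.6 and pandas 2.3.3. The limits were 75 and 25. Steps were log2 ratios with a pseudocount, the 25th percentile of the assay's values rounded to 1 significant digit (0.7 for H3K27ac, 2 for H3K4me1 and 0.6 for PU.1), counted at 2-fold. Ratios to LSK share the LSK value with the rule for the histone marks and are not given. Positions are as the table gives them. No genome of build mm9 was used here, so the position of an enhancer relative to exons, introns and UTRs and its sequence are not given. The steps were tested on simulated data.

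Named enhancers are those with the widest rank gap (primed) or highest lower rank (active) in LSK, the highest or lowest later ranks of each fate, the highest and lowest step ratios, and the list members with the largest rank difference between preGM and granulocytes. Of these, a selection is described and some are not reported here. The members and the gene lists were chosen with earlier results of these data known. Alternatives were other rank limits, a minimum width, 1 enhancer per gene, matched H3K4me1, isolated enhancers, other ranks for acetylation, other pseudocounts, subtraction of the median ratio, a filter on low signal, and leaving out the run on chromosome 8. The alternatives were run for primed and active enhancers only.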

Additional observations from a re-analysis of the deposited data

How the results depend on the processing

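No paired analysis was possible because the table does not separate the replicates of a group, and leaving out each replicate was not run for the same reason. With 1 value per group, depth unknown and no test, small shares such as those of the KO comparison are limited by a few enhancers. In 317 of 356 pairs of values compared under the 15 alternatives, primed and active enhancers kept the order of the main analysis. The 317 include pairs with 0% in both classes in the main analysis and in the alternative, which have no order to keep. All pairs for H3K4me1 at least 2-fold higher in KO than in wild type preGM were of this kind. The 39 with another order were of shares of 2-fold differences, apart from the primed state in granulocytes under limits of 90 and 10, which neither class reached. They include the KO shares with a pseudocount of 0.6 in place of 0.7, where H3K27ac was at least 2-fold lower in KO at 0.518% of primed and 0.499% of active enhancers. That setting and the one without the run on chromosome 8 were chosen after seeing the data.

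A value counted as moved when it left the 95% Wilson interval of the main share, or when a number of enhancers differed by over 1.5 times. The interval treats enhancers as independent, although neighbours share signal, and it measures no spread between libraries. It serves here only as a yardstick for the size of a difference. In the values that moved, H3K27ac and H3K4me1 stand for a rank at or above the limit in granulocytes, active state for that state in granulocytes, PU.1 and expression for a value above the median in LSK, granulocyte decrease for H3K27ac at least 2-fold lower in granulocytes than in GMP, and KO decrease for H3K27ac at least 2-fold lower in KO than in wild type preGM. Only moved values of these results and of the numbers of enhancers are given. Of 722 values under the alternatives, 301 moved. There were 36 results per class, and the moved values of the rest are not reported here. The cause of the differences under the alternatives was not tested. Limits of 67 and 33 gave primed 1725 enhancers, 8.52% for active state and 36.0% for expression, and active 8045 enhancers, 46.2% for H3K27ac, 50.5% for H3K4me1, 42.0% for active state, 78.0% for PU.1 and 12.4% for granulocyte decrease. Limits of 80 and 20 gave primed 410 enhancers, 1.46% for active state, 0% for KO decrease and 22.0% for expression, and active 3332 enhancers, 55.8% for H3K27ac, 61.5% for H3K4me1, 32.7% for active state, 84.6% for PU.1 and 15.7% for granulocyte decrease. Limits of 90 and 10 gave primed 60 enhancers, 1.67% for H3K27ac, 15% for H3K4me1, 0% for active state, 53.3% for PU.1, 0% for KO decrease and 10% for expression, and active 804 enhancers, 68.9% for H3K27ac, 72.3% for H3K4me1, 20.9% for active state, 91.0% for PU.1, 19.9% for granulocyte decrease and 62.2% for expression. With 1 enhancer per gene the values were active 59.1% for H3K4me1 and 83.2% for PU.1. With H3K4me1 ranks of 75 to 85 they were primed 14.3% for H3K4me1 and 37.2% for expression, and active 52.8% for H3K27ac, 49.7% for H3K4me1, 31.0% for active state, 80.2% for PU.1, 15.3% for granulocyte decrease, 0.120% for KO decrease and 63.0% for expression. For enhancers with no neighbour within 2 kb they were primed 2.81% for H3K27ac, 10.2% for H3K4me1, 1.05% for active state, 51.2% for PU.1, 0.351% for granulocyte decrease and 19.2% for expression, and active 43.8% for H3K27ac, 54.7% for H3K4me1, 30.0% for active state, 85.5% for PU.1, 16.0% for granulocyte decrease and 52.5% for expression. A rank of 50 for H3K27ac gave primed 14.4% for H3K27ac, and active 71.4% for H3K27ac. A rank of 90 gave primed 1.04% for H3K27ac, and active 26.9% for H3K27ac. A pseudocount 4 times smaller gave primed 5.18% for granulocyte decrease and 4.02% for KO decrease, and active 19.2% for granulocyte decrease and 1.52% for KO decrease. One 4 times larger gave primed 0% for granulocyte decrease and 0% for KO decrease, and active 5.01% for granulocyte decrease and 0.0199% for KO decrease. Subtracting the median log2 ratio gave active 17.8% for granulocyte decrease. A filter at the median signal gave primed 4.92% for granulocyte decrease, and active 15.7% for granulocyte decrease.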

Other observations

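A further set of 597 enhancers had an H3K27ac rank of at least 75 in LSK with an H3K4me1 rank of at most 25. Their median width was 530 bp, against 194 bp for all enhancers. An H3K27ac rank of at least 75 was held by 81.1% of them in preGM, 80.2% in GMP and 71.5% in granulocytes, shares above those of the active enhancers (68.7%, 63.7% and 51.0%). Their median H3K27ac was already higher in LSK, 2.52 against 1.97 in active enhancers, and the shares were not matched for it. The LSK flag was set for 0.335% of the 597 and 43.9% of active enhancers, and the granulocyte flag for 65.8% and 39.6%. The 597 are thus mostly in the catalogue through later stages, and their later shares are a description only. Between GMP and preGM, H3K27ac was at least 2-fold higher in GMP at 28.3% of the 597, against 9.21% of all enhancers.

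Marker lists of 6 other cell types held 17 active enhancers, of which 8 were at H3K27ac rank 75 in preGM, 4 in GMP and 5 in granulocytes, where 11 were at or below rank 50. These 5 included the only erythroid enhancer and 3 of the 8 of megakaryocyte markers. An enhancer of Gata3, a T cell factor, had an H3K27ac of 1.68 in LSK, 1.27 in preGM, 0.254 in GMP and 0.697 in granulocytes. One of Lck, a T cell kinase, had 1.74 in LSK, 1.18 in preGM, 0.702 in GMP and 0.438 in granulocytes, and Lck was listed at an expression of 357 in LSK, 23.1 in GMP and 64 in granulocytes. One of Itga2b, an integrin of megakaryocytes, had 1.74 in LSK, 2.76 in preGM, 2.67 in GMP and 0.857 in granulocytes. One of Gp9, a platelet glycoprotein, was highest in granulocytes, with 1.63 in LSK, 1.30 in preGM, 2.33 in GMP and 4.90 in granulocytes.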
